A study of Mus musculus with 22 samples.

Results

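The synaptic vesicle release machinery was followed as 42 genes chosen by name: 9 synaptotagmins, 9 SNARE proteins and their helpers, 9 proteins of the active zone and of vesicle priming, 13 vesicle proteins and transporters, and 2 proteins of vesicle retrieval. The list was drawn up with earlier results of these data known, so counts of its members are a description. All 42 had a probe set that carries 1 gene symbol, among 18194 genes with such a probe set. Each gene was read from its brightest probe set over all arrays, and 39 of the 42 were bright enough to be tested, among 10772 genes tested in all. The genes Syt3, Sv2c and Slc17a7 were too dim and were not tested.

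RNA from cerebellar granule cells of postnatal day 7 mice, strain C56Bl6/J in the labels, was hybridised to 22 Affymetrix mouse arrays in 3 separate experiments. In the first, 4 arrays of Chd7 mutant cells, for which the study's text gives Chd7 f/f mice carrying Atoh1-Cre, were set against 4 of wild type cells, given there as Chd7 f/f without Cre; this Cre acts in the Atoh1 lineage, which includes granule cells, and the arrays hold whatever other cells came through the purification. In the second, cells kept with 10 µM ICRF-193, an inhibitor of type II DNA topoisomerases, for 12 h were set against cells kept with DMSO, on 4 arrays each. In the third, cells cultured with Smo2 were set against cells cultured without it, on 3 arrays each, and the labels give neither a dose nor an account of what Smo2 is. The study's main text does not use that name. It describes arrays of granule cells cultured with the Smoothened agonist SAG, as proliferating progenitors, and without it, as postmitotic neurons. The labels name the arrays biological replicates without tying them to animals or cultures, so p-values measure the spread between these arrays.

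A neuron releases transmitter when a vesicle docked at the active zone fuses with the presynaptic membrane. Vamp2 on the vesicle zips together with Stx1a and Snap25 on the membrane, complexins hold and then promote this SNARE complex, and synaptotagmins couple it to calcium entry. Rim, Munc13, Piccolo and Bassoon proteins build the site where vesicles are made ready, Rab3 proteins bring vesicles to it, and granule neurons, which use glutamate, load their vesicles through the transporters Slc17a6 and Slc17a7.

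Most of the release genes were lower in cells cultured with Smo2, and smaller groups of them were lower in Chd7 mutant cells and in cells kept with ICRF-193. Changes are differences of mean log2 signal, first group minus control, and a gene is called where limma's adjusted p over all genes tested is under 0.05. In Chd7 mutant cells 8 of the 39 release genes fell, against 3.82% of all genes tested, and 2 rose, against 5.07%. With ICRF-193 6 of the 39 fell, against 3.46% of all genes tested, and 2 rose, against 3.14%. With the replicate number as a block 10 fell and 3 rose, beside 486 and 461 of all 10772 genes. With each array centred on its median 1 fell and 1 rose, beside 241 and 173 of all genes. With Smo2 36 of the 39 fell, against 39% of all genes tested, and 2 rose, against 29.7%. In these RNA pools fewer cells of a type and less RNA per cell cannot be told apart.

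The median change of the 39 release genes was -0.18 in Chd7 mutant cells, -0.17 with ICRF-193 and -1.14 with Smo2. Over all genes tested the median was 0.00, 0.01 and -0.09, in the same order. With each array centred on its median in place of quantile normalization, the Smo2 values were -1.01 for the release genes and 0.05 for all genes. Without the replicate block, 3 release genes were called in all 3 experiments: Syt1 fell in each, while Cplx2 and Syt13 rose in each. A further 12 were called in 2 experiments and 23 in 1 experiment, which for all 23 was the one with Smo2. Rims3, a short Rim protein, was the single tested member called in none. Of the 8 genes that fell in Chd7 mutant cells and the 6 that fell with ICRF-193, Syt1 alone was in both lists. Every gene of either list also fell with Smo2, but so did 36 of the 39, so that overlap carries little information. With the block 5 genes fell in both, Syt1, Rims2, Cplx1, Synpr and Amph, and 7 were called in all 3 experiments, these 5 with Cplx2 and Syt13. Overlaps between experiments were not counted over all genes tested, so these counts are a description.

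**Figure D1:**
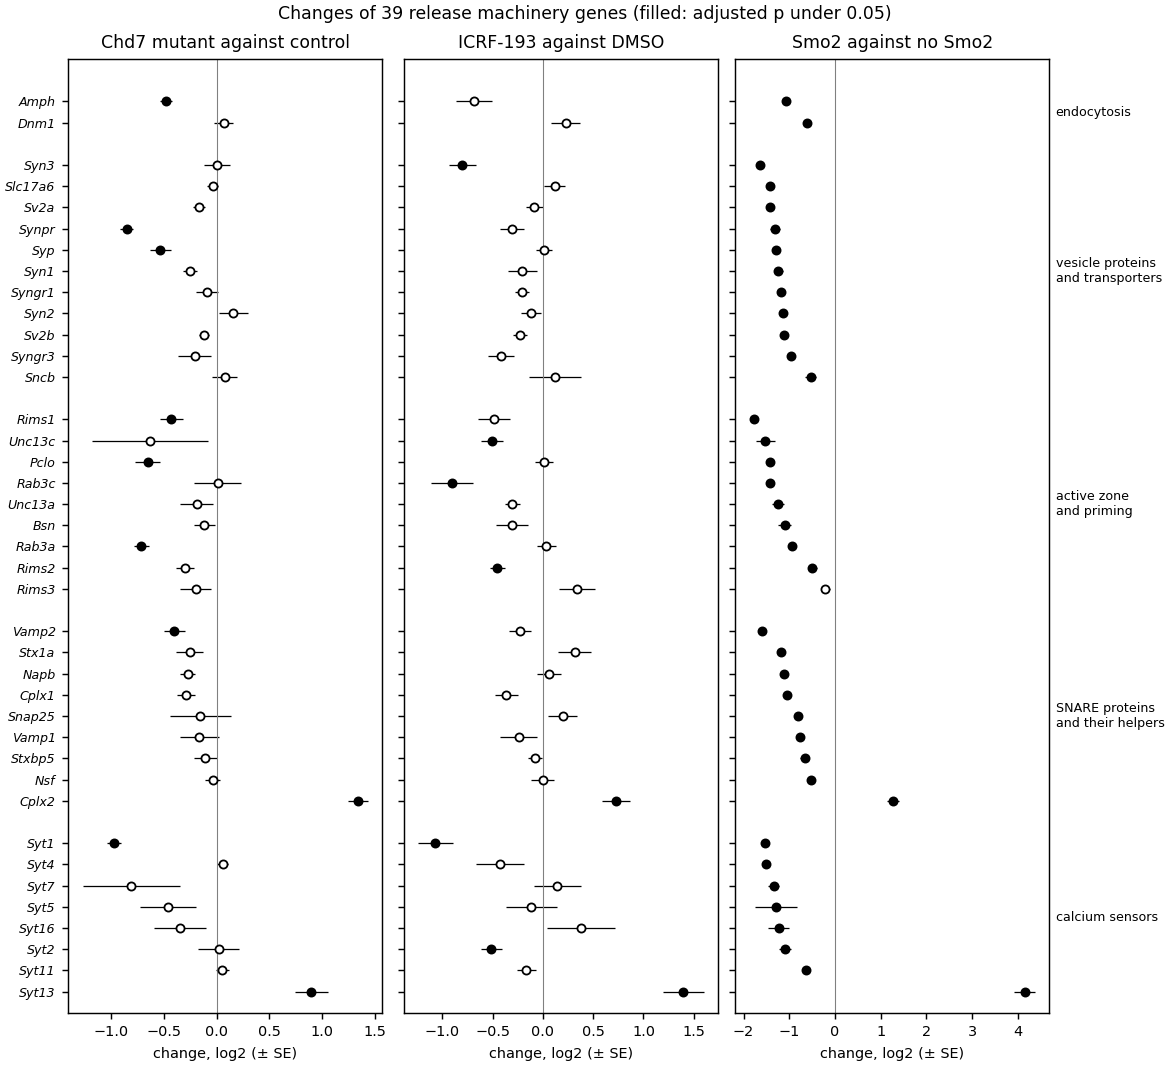
Change of each of the 39 tested release genes (horizontal axes, log2, point with SE) in the 3 experiments, by role; filled points have a limma adjusted p under 0.05. In the Smo2 panel 36 genes lie left of 0 and are filled, while Cplx2 and Syt13 lie right of 0 in every panel.

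Among the synaptotagmins were the called members with the largest fall in Chd7 mutant cells and with ICRF-193, in both cases Syt1. Syt1 is the calcium sensor of fast release. Its log2 signal was 12.40, 12.41, 12.57 and 12.55 on the mutant arrays, replicates 1 to 4 in order, and 13.41, 13.42, 13.45 and 13.53 on the control arrays. It was 11.75, 11.73, 11.42 and 11.50 with ICRF-193 and 12.90, 12.95, 12.64 and 12.19 with DMSO. With Smo2 it was 11.58, 11.59 and 11.55, and without it 13.10, 13.08 and 13.14. In each experiment every control array was above every other array, and the DMSO arrays were spread most. The change was -0.97 ± 0.06 (SE, adjusted p = 0.000275), a 1.96-fold lower signal, in Chd7 mutant cells, -1.07 ± 0.17 (adjusted p = 0.00706) with ICRF-193 and -1.53 ± 0.05 (adjusted p = 3.71e-06) with Smo2, all from limma.

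Syt13 is a synaptotagmin known for not binding calcium, and it went the other way. It read 6.84, 6.41, 7.12 and 6.71 in mutant cells against 5.94, 5.62, 5.88 and 6.07 in their controls. It read 7.67, 7.20, 7.60 and 7.44 with ICRF-193 against 6.29, 6.57, 5.77 and 5.70 with DMSO, and 9.93, 9.97 and 10.08 with Smo2 against 5.30, 6.20 and 6.04 without. No array of a control group reached its treated or mutant group. The control means, 5.88, 6.08 and 5.85, lay below the brightness limit of 6.44, so the gene passed that limit through the arrays where it is higher, and no fold is given; its calls also held without the limit. The rises were 0.89 ± 0.16 (adjusted p = 0.0123), 1.40 ± 0.20 (adjusted p = 0.00419) and 4.15 ± 0.23 (adjusted p = 2.18e-05), in the same order.

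Syt2, a close relative of Syt1 with the same task, fell with ICRF-193 and Smo2. Its signal was 7.33, 7.10, 7.11 and 7.04 with ICRF-193 and 7.66, 7.90, 7.46 and 7.61 with DMSO, a change of -0.51 (adjusted p = 0.0268). It was 6.30, 6.40 and 6.20 with Smo2 and 7.30, 7.67 and 7.23 without, a change of -1.10. These groups did not overlap in either experiment, whereas in the Chd7 experiment the mutant arrays at 7.16, 7.10, 7.88 and 7.40 lay among the controls at 7.71, 7.43, 7.18 and 7.15. The call with ICRF-193 was lost in 6 of the 8 fits that left out 1 array.

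Of the other synaptotagmins, Syt4 fell by 1.51, Syt7, a sensor of slower release, by 1.34, Syt16 by 1.24 and Syt11 by 0.64 with Smo2, and none of these was called in the other experiments without the block; with it Syt4 fell under ICRF-193, with a change of -0.43 (adjusted p = 0.0280). Syt5 fell by 1.29 with Smo2 (adjusted p = 0.0454), where 1 of its 3 Smo2 arrays was at 5.50 and the others were at 7.26 and 7.17; the call was lost in each of the 3 fits that left out an array without Smo2, at adjusted p of up to 0.104, and without the Smo2 array at 5.50 the change was -0.72.

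Syt7 and Unc13c split the mutant arrays by replicate number, and other release genes did so to a smaller extent. In mutant cells Syt7 read 11.72 and 12.00 in replicates 1 and 2 and 10.04 and 9.99 in replicates 3 and 4, while its controls read 11.74, 11.85, 11.68 and 11.71. Unc13c, a Munc13 priming protein prominent in the cerebellum, did the reverse, at 5.57 and 6.46 in mutant replicates 1 and 2 and at 8.10 and 8.08 in replicates 3 and 4, with controls at 7.51, 7.53, 7.94 and 7.74. The mutant replicates thus lay on both sides of, or level with, the controls, and neither gene was called over all 8 arrays, with changes of -0.81 (adjusted p = 0.308) for Syt7 and -0.63 (adjusted p = 0.508) for Unc13c. As a description, since the pairs were chosen after these values were seen, the change of Syt7 was -1.68 within replicates 3 and 4 and 0.06 within replicates 1 and 2. The change of Snap25 was -0.51 within replicates 3 and 4 and 0.20 within 1 and 2. Syt5, Stx1a and Syngr3 had changes of -0.86, -0.48 and -0.40 within replicates 3 and 4. Within 1 and 2 theirs were -0.06, -0.04 and -0.01. What set the 2 pairs of replicates apart is not stated in the labels and was not tested.

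**Figure D2:**
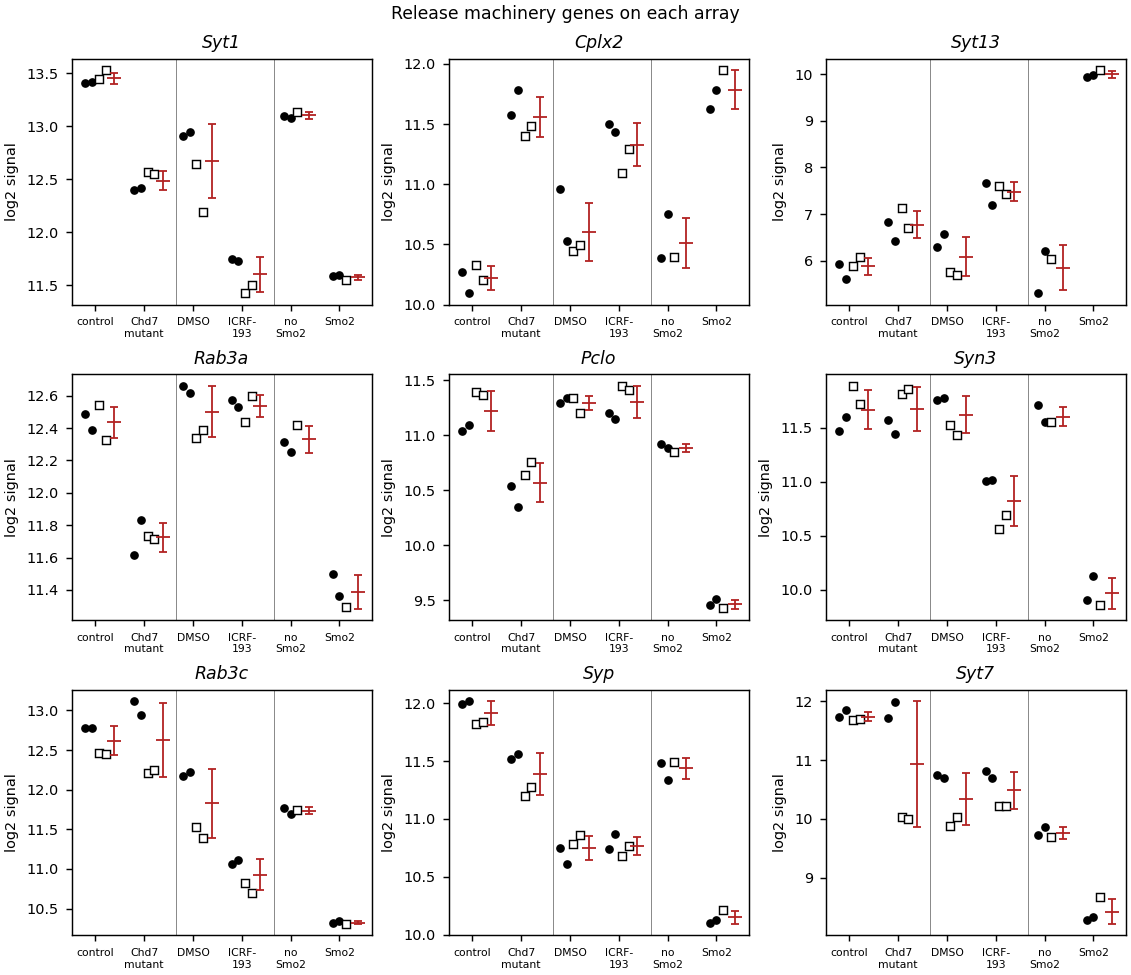
Log2 signal (vertical axes) of 9 release genes on each of the 22 arrays; filled circles are replicates 1 and 2, open squares replicates 3 and 4 (3 alone in the Smo2 experiment), and red bars are mean and SD. The mutant arrays of Syt7 lie in 2 pairs, near 11.72 and near 10.04, while the groups of Syt1, Cplx2 and Syt13 do not overlap in any experiment.

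Among SNARE proteins and their helpers, Cplx2 rose in all 3 experiments. Complexins are small proteins that bind the assembled SNARE complex. Cplx2 was at 11.58, 11.78, 11.40 and 11.49 in mutant cells against 10.27, 10.09, 10.33 and 10.20 in controls, at 11.50, 11.44, 11.09 and 11.29 with ICRF-193 against 10.96, 10.53, 10.44 and 10.49 with DMSO, and at 11.62, 11.79 and 11.95 with Smo2 against 10.39, 10.75 and 10.40 without. All control arrays were below all others of their experiment. The changes were 1.34 ± 0.09 (adjusted p = 0.000394), a 2.53-fold higher signal, 0.72 ± 0.14 (adjusted p = 0.0170) and 1.28 ± 0.13 (adjusted p = 0.000242). Under ICRF-193 the call was lost in 4 of 8 fits without 1 array and with each array centred on its median (adjusted p = 0.151).

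Its paralog Cplx1 did not share this direction: its change was -0.29 (adjusted p = 0.0648) in mutant cells and -0.36 (adjusted p = 0.109) with ICRF-193, and with Smo2 it fell by 1.06. Both of the first 2 values passed in the fit blocked by replicate number, at adjusted p of 0.0370 and 0.0375.

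Vamp2, the vesicle SNARE of fast release, fell in mutant cells and with Smo2. Mutant arrays read 11.37, 11.33, 11.20 and 11.06 and their controls 11.82, 11.58, 11.49 and 11.67. The Smo2 arrays read 9.35, 9.50 and 9.60 and their controls 11.15, 11.11 and 10.96. With ICRF-193 the arrays read 11.06, 11.17, 10.73 and 11.18 and with DMSO 11.19, 11.21, 11.35 and 11.32, close together without overlap. The changes were -0.40 ± 0.10 (adjusted p = 0.0398), -1.59 ± 0.09 (adjusted p = 2.13e-05) and, for ICRF-193, -0.23 ± 0.11 (adjusted p = 0.310). The call in mutant cells was lost in 7 of 8 fits without 1 array. Apart from Cplx2, every other member of this group fell with Smo2, from Nsf, which takes used SNARE complexes apart, at -0.52, through Stxbp5, Vamp1, Snap25 and Napb to Stx1a at -1.18. Apart from Cplx1, those called elsewhere in the blocked fit were Napb, lower in mutant cells with a change of -0.27 (adjusted p = 0.0379), and Stx1a, higher under ICRF-193 with a change of 0.32 (adjusted p = 0.0451).

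At the active zone Rab3a, Pclo and Rims1 fell in mutant cells, Rab3c, Rims2 and Unc13c fell with ICRF-193, and all 6 fell with Smo2. Rab3a is the vesicle GTPase that Rim proteins bind. It was at 11.62, 11.84, 11.74 and 11.72 in mutant cells and 12.49, 12.39, 12.54 and 12.32 in controls, at 12.57, 12.53, 12.44 and 12.60 with ICRF-193 and 12.66, 12.62, 12.34 and 12.39 with DMSO, and at 11.50, 11.37 and 11.30 with Smo2 and 12.32, 12.25 and 12.42 without. The mutant and Smo2 arrays lay clear of their controls, and the ICRF-193 arrays lay within the range of theirs. Its change was -0.71 ± 0.07 (adjusted p = 0.00120), 0.03 ± 0.09 (adjusted p = 0.897) and -0.94 ± 0.08 (adjusted p = 9.4e-05), in the same order.

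Rab3c is a second Rab3. Its arrays read 11.07, 11.11, 10.82 and 10.70 with ICRF-193 and 12.18, 12.22, 11.53 and 11.39 with DMSO, a change of -0.90 ± 0.21 (adjusted p = 0.0369). They read 13.12, 12.94, 12.21 and 12.24 in mutant cells and 12.78, 12.78, 12.46 and 12.45 in controls, a change of 0.01 (adjusted p = 0.984). The Smo2 arrays at 10.32, 10.34 and 10.30 lay below the others at 11.77, 11.69 and 11.74. Under ICRF-193 the highest array, at 11.11, lay close below the lowest DMSO array, at 11.39, and the call was lost in 6 of 8 fits without 1 array.

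Pclo encodes Piccolo, a giant scaffold of the active zone. Mutant arrays were at 10.54, 10.34, 10.63 and 10.76 against controls at 11.04, 11.09, 11.39 and 11.37, ICRF-193 arrays at 11.20, 11.15, 11.45 and 11.41 against DMSO at 11.29, 11.34, 11.34 and 11.20, and Smo2 arrays at 9.46, 9.51 and 9.42 against 10.92, 10.88 and 10.84. The change was -0.65 ± 0.12 (adjusted p = 0.0138) in mutant cells and -1.42 ± 0.05 (adjusted p = 5.76e-06) with Smo2. The mutant and Smo2 arrays were all below their controls, and the ICRF-193 and DMSO arrays overlapped, with a change of 0.01. Bsn, which encodes the partner scaffold Bassoon, had a called change of -1.10 with Smo2 and changes of -0.12 and -0.31, not called, in the Chd7 and ICRF-193 experiments.

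Rims1 and Rims2 are the long Rim scaffolds. Rims1 had the largest fall of any member with Smo2, from 10.65, 10.63 and 10.89 to 8.85, 9.07 and 8.92, a change of -1.77 ± 0.10 (adjusted p = 1.99e-05) or 3.42-fold. In mutant cells it was at 10.94, 10.97, 10.58 and 10.66 against 11.07, 11.33, 11.18 and 11.27, a change of -0.43 (adjusted p = 0.0439) that was lost in 7 of 8 fits without 1 array. With ICRF-193 it was at 10.15, 10.16, 10.13 and 9.96 against 10.98, 10.76, 10.30 and 10.31, groups that did not overlap and whose change of -0.49 was not called (adjusted p = 0.124).

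Rims2 fell with ICRF-193 and Smo2. It read 10.27, 10.35, 10.28 and 10.49 with ICRF-193 against 10.78, 10.80, 10.77 and 10.86 with DMSO, a change of -0.45 ± 0.07 (adjusted p = 0.00680). It read 10.41, 10.26, 10.48 and 10.48 in mutant cells against 10.78, 10.52, 10.79 and 10.73, a change of -0.30 (adjusted p = 0.0651, and 0.0268 in the blocked fit). With Smo2 it read 10.04, 10.34 and 10.29 against 10.62, 10.81 and 10.72, a change of -0.50. None of these groups overlapped. With each array centred on its median the call with ICRF-193 was lost (adjusted p = 0.0816).

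The priming gene Unc13c was at 6.90, 7.14, 7.22 and 7.21 with ICRF-193 against 7.85, 7.46, 7.56 and 7.62 with DMSO and at 7.08, 7.24 and 6.70 with Smo2 against 8.47, 8.25 and 8.86 without, and these groups did not overlap. The changes were -0.51 (adjusted p = 0.0292) and -1.52 (adjusted p = 0.000733), and the first was lost in 7 of 8 fits without 1 array and with the replicate number as a block. Unc13a, a relative of Unc13c, fell by 1.25 with Smo2, with a change of -0.30 (adjusted p = 0.0562, and 0.0153 with these blocks) under ICRF-193.

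On the vesicle itself Syp and Synpr fell in mutant cells and Syn3 with ICRF-193, and all 11 tested vesicle proteins and transporters fell with Smo2. Synpr encodes synaptoporin and Syp synaptophysin, related proteins that span the vesicle membrane. Synpr was at 11.95, 11.95, 11.85 and 11.98 in mutant cells against 12.87, 12.82, 12.72 and 12.71, at 12.37, 12.35, 12.09 and 12.04 with ICRF-193 against 12.73, 12.62, 12.36 and 12.36, and at 11.61, 11.48 and 11.50 with Smo2 against 13.07, 12.82 and 12.67. The mutant arrays were close to each other and far from their controls, whereas ICRF-193 and DMSO arrays overlapped. The changes were -0.85 ± 0.06 (adjusted p = 0.000398), -0.30 ± 0.12 (adjusted p = 0.206, and 0.0387 in the blocked fit) and -1.32 ± 0.11 (adjusted p = 0.000101).

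Syp was at 11.52, 11.56, 11.20 and 11.27 in mutant cells against 11.99, 12.02, 11.82 and 11.84, a change of -0.53 ± 0.10 (adjusted p = 0.0161). It was at 10.74, 10.87, 10.68 and 10.77 with ICRF-193 against 10.74, 10.61, 10.78 and 10.86 with DMSO, and at 10.10, 10.13 and 10.21 with Smo2 against 11.48, 11.33 and 11.50. The mutant and Smo2 arrays lay below all their controls, whereas ICRF-193 and DMSO arrays were interleaved, with a change of 0.01 (adjusted p = 0.948). Without control replicate 1 the call in mutant cells was just lost (adjusted p = 0.0513).

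Syn3 is a synapsin, one of the proteins that tether vesicles to each other. With ICRF-193 it read 11.01, 11.02, 10.56 and 10.69 against 11.76, 11.77, 11.53 and 11.43 with DMSO, a change of -0.80 ± 0.13 (adjusted p = 0.00857). In mutant cells it read 11.58, 11.44, 11.82 and 11.86 against 11.47, 11.60, 11.89 and 11.72, a change of 0.00 (adjusted p = 0.990). With Smo2 it read 9.91, 10.13 and 9.86 against 11.71, 11.55 and 11.55, a change of -1.64. The groups overlapped in the Chd7 experiment alone. The call of Syn3 with ICRF-193 was lost with each array centred on its median (adjusted p = 0.0627). Its sister Syn1 had a change of -0.25 (adjusted p = 0.0508) in mutant cells, and Syn2 one of 0.16 (adjusted p = 0.499); neither was called with ICRF-193, and with Smo2 they fell by 1.24 and 1.14.

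The glutamate transporter Slc17a6 fell by 1.43 with Smo2 and had changes of -0.04 and 0.12 in the Chd7 and ICRF-193 experiments, neither called. Slc17a7, the transporter of mature granule neurons, stayed dim: its arrays read 7.09, 6.86, 6.55 and 6.48 with ICRF-193 and 5.99, 6.43, 6.06 and 5.88 with DMSO, groups that did not overlap, but it lay below the brightness limit of 6.44 on average and was not tested. Sv2a, Sv2b, Syngr1, Syngr3 and Sncb were called with Smo2, with changes from -1.43 for Sv2a to -0.54 for Sncb, and in the other experiments Syngr3 alone among them passed, under ICRF-193 in the blocked fit (-0.41, adjusted p = 0.0305).

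The 2 retrieval genes differed. Amph, which encodes amphiphysin and helps bend the membrane during endocytosis, was at 12.48, 12.51, 12.55 and 12.60 in mutant cells against 13.01, 13.03, 12.96 and 13.04, a change of -0.48 ± 0.05 (adjusted p = 0.00173). With ICRF-193 it was at 11.92, 12.28, 11.68 and 11.56 against 12.51, 12.90, 12.45 and 12.29, and the change of -0.68 missed the threshold (adjusted p = 0.0644) but passed in the blocked fit (adjusted p = 0.00424). With Smo2 it was at 11.74, 11.71 and 11.55 against 12.77, 12.68 and 12.76, a change of -1.07, and no experiment's groups overlapped. Dnm1, the dynamin that pinches vesicles off, fell by 0.61 with Smo2 and was not called in the others.

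A test of the difference itself compared the change in Chd7 mutant cells with the change under ICRF-193, which share no array. It called 6 of the 39 release genes, where 6.49% of all genes tested were called. The difference, Chd7 change minus ICRF-193 change, was -0.74 ± 0.12 for Rab3a (adjusted p = 0.00126), -0.66 ± 0.15 for Pclo (adjusted p = 0.0154), -0.54 ± 0.13 for Syp (adjusted p = 0.0170) and -0.54 ± 0.14 for Synpr (adjusted p = 0.0270). It was 0.81 ± 0.19 for Syn3 (adjusted p = 0.0183) and 0.62 ± 0.17 for Cplx2 (adjusted p = 0.0481). On these probe sets Rab3a, Pclo and Syp were thus lower in mutant cells with changes near 0 under ICRF-193, Syn3 the reverse, and Synpr and Cplx2 moved the same way with a larger change in mutant cells. For Rab3c the difference of 0.91 ± 0.32 was not called (adjusted p = 0.115), nor was that of Syt1 (0.10 ± 0.19, adjusted p = 0.841).

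Most release genes have more than 1 probe set, and these were read side by side in a fit over 19722 bright probe sets, in which 6.8% were called in the Chd7 experiment, 5.18% in the ICRF-193 experiment and 62.8% in the Smo2 experiment. All 3 probe sets of Cplx2 rose in every experiment. Syt1 fell on 4 of 4 probe sets in mutant cells and with Smo2 and on 3 of 4 with ICRF-193, where the other had a change of 0.11. Pclo fell on 3 of 3 in mutant cells, and Rab3a on 1 of 2, with the other at -0.13. Under ICRF-193 the 2 probe sets of Syn3 both fell, as did 2 of 3 of Syt2, 2 of 3 of Rims2, 2 of 4 of Rab3c, 1 of 2 of Rims1 (-0.45), 1 of 2 of Sv2b (-0.36) and 1 of 5 of Syn2 (-0.38), the last 3 on a probe set other than the brightest. For Pclo under ICRF-193 the dimmer probe sets had changes of -0.63 and -0.35, neither called, so its change near 0 there holds for the brightest one alone. Neither probe set of Vamp2 or of Rims1 passed in mutant cells in this larger fit, although all 4 changes were below 0, from -0.43 to -0.31 for Rims1 and from -0.41 to -0.40 for Vamp2.

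The release genes are long: the median gene of the 39 spans 60.4 kb in the GRCm38.p6 annotation, and the median of 10748 tested genes with a length 25.0 kb. Of the 15 release genes over 100 kb, 6 fell with ICRF-193, and of the 24 shorter ones 0 fell and 2 rose. The 6 are Syt1, Syt2, Syn3, Rab3c, Rims2 and Unc13c. With each array centred on its median in place of quantile normalization, Syt1 alone of the 6 was still called, beside 241 of all genes called lower. With the replicate block 7 long and 3 shorter ones fell, the shorter ones being Syt4, Cplx1 and Syngr3, and Unc13c was no longer called. Unc13c was called with replicates 1 and 2 as 1 block and 3 and 4 as another. In mutant cells 6 long and 5 shorter ones fell in the fit with the replicate block. Over all genes tested that fit called 486 lower with ICRF-193 and 555 in mutant cells, which were not split by length. Without the block 15.6% of all 1573 tested genes over 100 kb fell with ICRF-193, and 1.37% of the 9175 shorter ones. In mutant cells without the block 5 of the 15 long release genes fell, against 9.60% of all long genes, and 3 of the 24 shorter ones, against 2.82% of all shorter genes. Those 3 were Rab3a, Vamp2 and Syp, and Rab3a spans 3.91 kb and Vamp2 3.85 kb. The rank correlation of length with change over the 39 genes was -0.15 in the Chd7 experiment, -0.35 under ICRF-193 and -0.23 with Smo2, beside -0.03, -0.07 and -0.12 over all genes, given as a description since these genes were read on the same arrays.

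**Figure D3:**
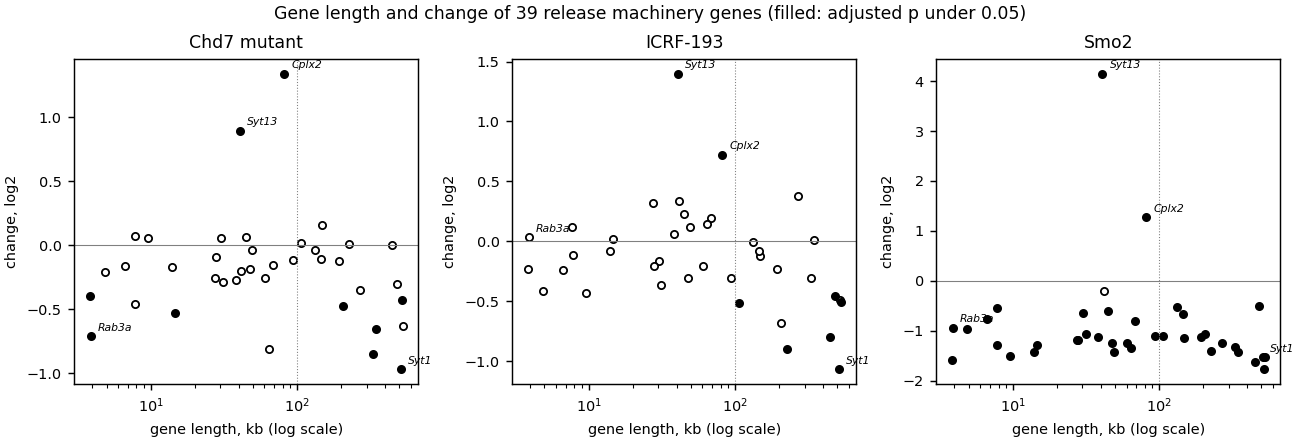
Gene length (horizontal axes, kb, log scale) against change (vertical axes, log2) of the 39 tested release genes in the 3 experiments; filled points have a limma adjusted p under 0.05, and the dotted line marks 100 kb. Calls are from the fit without the replicate block, in which all 6 filled points below 0 under ICRF-193 lie right of 100 kb, while Rab3a, at 3.91 kb, is among the genes that fell in Chd7 mutant cells.

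Promoter sequence is shown for the genes called in every experiment without the replicate block, since they moved the same way each time. RefSeq sequence of build GRCm38.p6 was matched for 30 of the 39 tested genes, as 39 promoters, and Syt13 has no entry there. The motifs searched on both strands of the 250 bases before each start were GGGCGG, the GC box, and TGACGTCA, the cyclic AMP response element, neither of which contains the other. The GC box was in 59% of the release gene promoters and in 32.7% of all 32851 promoters searched. The other motif was in 2.56%, the promoter of Syn1, and in 1.55% of all. All promoters here include those of genes that were not tested, so the 2 groups also differ in the brightness limit. GC content was 58.8% at the median of the release gene promoters and 52.4% over all. Capitals mark a GC box, of which the upstream start of Syt1 holds 1. Neither the downstream start of Syt1 nor the listed start of Cplx2 holds either motif in its window. The Cplx2 window lies inside the annotated gene, which begins at base 54301964, so the bases before that beginning are not shown.
Syt1, upstream start, chr10:109010976-109011225, minus strand: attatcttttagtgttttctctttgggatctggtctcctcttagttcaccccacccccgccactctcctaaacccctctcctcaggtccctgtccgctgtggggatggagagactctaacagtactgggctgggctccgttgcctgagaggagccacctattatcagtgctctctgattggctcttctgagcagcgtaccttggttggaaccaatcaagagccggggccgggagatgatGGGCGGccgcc
Syt1, downstream start, chr10:109009112-109009361, minus strand: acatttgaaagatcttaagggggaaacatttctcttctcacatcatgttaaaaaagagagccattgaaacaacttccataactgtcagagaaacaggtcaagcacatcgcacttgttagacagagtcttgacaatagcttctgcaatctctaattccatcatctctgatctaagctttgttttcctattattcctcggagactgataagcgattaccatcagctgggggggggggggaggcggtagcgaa
Cplx2, chr13:54302306-54302555, plus strand: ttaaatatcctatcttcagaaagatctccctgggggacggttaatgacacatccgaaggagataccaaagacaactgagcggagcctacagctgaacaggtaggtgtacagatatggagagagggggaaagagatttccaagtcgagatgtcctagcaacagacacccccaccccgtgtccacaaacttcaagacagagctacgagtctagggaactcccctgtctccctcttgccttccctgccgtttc

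Other genes of the pathway, a list of 70 of which 55 were tested, moved in both directions. In mutant cells 6 of the 55 fell and 4 rose, beside 3.82% and 5.07% of all genes tested. Those that fell most were Lin7a (-0.50), Stxbp5l (-0.49) and Apba1 (-0.38), and those that rose most were Doc2b (2.08), Rph3a (0.68) and Sypl (0.52). With ICRF-193 6 fell, led by Erc2 (-1.28), Cask (-0.92) and Sh3gl2 (-0.76), and 2 rose, Doc2b (2.47) and Rph3a (0.85). Of all genes tested 3.46% fell and 3.14% rose there. With Smo2 36 fell, led by Lin7a (-1.64), Dnm3 (-1.58) and Slc32a1 (-1.56), and 8 rose, led by Stxbp6 (2.39), Syngr2 (2.06) and Doc2b (1.70). The shares of all genes tested were 39% lower and 29.7% higher. Doc2b, a high-affinity calcium sensor that binds SNARE proteins, was thus higher in all 3 experiments, as Cplx2 and Syt13 were, while Rph3a, a Rab3 effector, rose in mutant cells and with ICRF-193 and fell with Smo2.

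The labelled cell type was checked against its markers. Granule lineage genes were bright in every group, with 9 of 11 listed genes tested, a summed log2 signal of 16.12 to 16.79 over all groups, and Gabra6, which marks mature granule neurons, below the limit for testing. Chd7 was lower in mutant cells on 1 of its 2 probe sets, 8.99 to 9.98 on mutant and 11.27 to 11.72 on control arrays, and the brighter one was at 11.37 to 11.86 against 11.74 to 12.01. The sources used here do not place the deleted part of the gene, so neither probe set is known to lie in it. Beside the falls with Smo2, all 7 tested markers of dividing cells rose, with a summed signal of at least 15.99 on the Smo2 arrays and at most 13.08 on the others. There 9 of 9 granule lineage markers and 5 of 5 for microglia (9.81 to 10.15 against 10.86 to 11.33) fell. Of 7 for GABAergic interneurons and Purkinje cells 6 fell and 1 rose (11.96 to 12.07 against 12.46 to 12.50). Of 8 for astrocytes 6 fell and 2 rose (12.20 to 12.43 against 12.87 to 13.09). Of 6 for the oligodendrocyte lineage 3 fell and 3 rose (13.03 to 13.08 against 13.39 to 13.53). Of 6 for fibroblasts and pericytes 1 rose (9.22 to 9.63 against 9.17 to 9.21), as did 1 of 3 for muscle (9.49 to 9.85 against 8.58 to 8.66). Beside the falls in mutant cells, 2 of 9 granule lineage markers fell, Pax6 (-0.42) and Meis1 (-0.37), with a summed signal of 16.41 to 16.51 against 16.59 to 16.62, which did not overlap. There 3 of 3 tested muscle markers rose (summed signal 10.48 to 11.37 against 8.58 to 8.96), as did 2 of 6 for fibroblasts and pericytes (12.46 to 13.50 against 11.53 to 12.55), 1 of 6 for the oligodendrocyte lineage (14.07 to 14.54 against 12.41 to 13.75) and 1 of 8 for astrocytes (13.13 to 15.08 against 12.75 to 14.10), and 2 of 7 for dividing cells (13.18 to 13.84 against 12.70 to 13.16). Called or not, every tested fibroblast and pericyte, oligodendrocyte lineage and astrocyte marker had a change above 0, with medians of 0.83, 1.18 and 0.79. All 5 tested microglia markers had changes below 0, none called, with a median of -0.92 (10.89 to 12.29 against 11.94 to 12.71). Of the 7 for GABAergic interneurons and Purkinje cells 4 were below 0 and none was called. The sex-linked list held Y-linked genes and Xist. Of its 4 tested genes 3 fell, with a lowest change of -3.94, and the other had a change of 0.75, not called. The mean log2 signal of that list was 6.44 to 8.60 in mutant cells and 9.63 to 9.89 in controls. Its summed signal went the other way, at 13.595 to 13.85 against 12.76 to 13.57. The study's text states that the sex of pups was not discriminated, so sex and genotype cannot be told apart here. Among the release genes Syp and Syn1 lie on the X chromosome. Under ICRF-193 no marker list had a member that rose. Those with members that fell were the granule lineage with 2 of 9, Meis1 and Rbfox3 (16.43 to 16.54 against 16.58 to 16.67), GABAergic interneurons and Purkinje cells with 1 of 7 (12.58 to 12.77 against 12.82 to 12.97), dividing cells with 1 of 7 (13.32 to 13.92 against 13.15 to 13.84) and the oligodendrocyte lineage with 1 of 6 (12.53 to 13.10 against 12.88 to 13.43). Of all genes tested 3.82% fell and 5.07% rose in mutant cells, 3.46% and 3.14% with ICRF-193, and 39% and 29.7% with Smo2. The part of other cells in the changes of release genes was not tested.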

How the data were processed

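RNA of 22 samples was measured on Affymetrix mouse arrays in 6 groups, taken from the labels. The deposited values are linear signal intensities of 45101 probe sets, made by the authors with software that no source used here names. Each array was already scaled, since its mean without the top and bottom 2% of probe sets came to 500. Signals were floored at 16, taken to log2 (array medians 6.33 to 6.81) and quantile normalized over the 22 arrays, so changes are relative to the whole array. Probe sets with 1 symbol (34958) were kept, those with several (932) or none (9211) were left out, and genes whose brightest probe set had a mean of at least 6.44, the median of all probe sets, were tested.

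Groups were compared by limma 3.58.1 (R 4.3.3), fitted to 1 experiment at a time. Tests were two-sided, and p-values were adjusted by Benjamini-Hochberg over 10772 genes; levels of different probe sets were not compared. The steps were tested on simulated data. The members and gene lists were chosen with earlier results of these data known. Values on every array are given for release genes called in at least 2 experiments and for the 5 largest called changes per experiment and direction, and for the other pathway genes the 3 largest. Syt7, Unc13c in mutant cells and Slc17a7 were chosen for array values after those were seen. Protein sequences planned for paralogs were not used here.

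The study's methods name a t-test, which was run as an alternative. Deviations from group means correlated between same-numbered arrays by 0.39 to 0.42 in the Chd7 experiment and by 0.28 to 0.41 in the ICRF-193 experiment. Values with the number as a block are given where they change a call. Arrays of another number within replicates 1 and 2, or within 3 and 4, correlated as much (0.38 to 0.44 and 0.30 to 0.35), and across them the correlations were -0.45 to -0.39 and -0.43 to -0.21. The correlations thus follow these sets and do not single out the number. With the set as a block 12 release genes fell in mutant cells (1010 of all genes) and 13 under ICRF-193 (614). Beyond the number block, limma then called Syn1 in mutant cells (adjusted p = 0.0143). Under ICRF-193 it called Rims1 (adjusted p = 0.0272), Unc13a (adjusted p = 0.0153) and Unc13c (adjusted p = 0.0232), all lower. In the Smo2 experiment same-numbered arrays correlated by -0.01 to 0.03. Of 231 pairs of arrays 0 held identical values. The number of arrays limits the precision. Figures were drawn with matplotlib 3.10.9.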

Additional observations from a re-analysis of the deposited data

Results flagged for a closer look

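The change in Chd7 mutant cells differed from the change under ICRF-193 by limma's test of the difference for 6 release genes: by -0.74 for Rab3a, -0.66 for Pclo, -0.54 for Syp, -0.54 for Synpr, 0.81 for Syn3 and 0.62 for Cplx2 on the log2 scale. In 4 of 156 groups of 4 arrays, 2.56%, where chance alone marks about 1 in 20, a release gene had 1 array far from the other 3, measured as its gap to the nearest of them over the whole range. Syt16 was at 6.29 in mutant replicate 3 against 7.05 to 7.13 on the others (0.906 of the range), and Vamp1 at 6.71 in DMSO replicate 1 against 7.44 to 7.51 (0.92). Cplx2 was at 10.96 in DMSO replicate 1 against 10.44 to 10.53 (0.833), the array closest to the ICRF-193 group. Rims1 was at 9.96 in ICRF-193 replicate 4 against 10.13 to 10.16 (0.85).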

How the results depend on the processing

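Under the alternatives run, no called result changed direction. Numbers in brackets are the genes called in the same direction over all genes in that fit. In Chd7 mutant cells the 8 genes that fell (412) became 14 by the methods' t-test without adjustment (1295). They became 0 (0) with set means as samples, replicates 1 and 2 averaged and 3 and 4 averaged, and 15 within replicates 3 and 4 (569). The 2 that rose (546) became 0 with set means (0) and 1 within replicates 1 and 2 (638). Under ICRF-193 the 6 that fell (373) became 1 with each array centred on its median (241) and 3 without the filter on low values (296 of 18194 genes). They became 10 with the replicate block (486), 5 of the 6 among them, and 13 with the set as a block (614). They became 0 with set means (45), 3 within replicates 1 and 2 (181) and 1 within replicates 3 and 4 (131). By the methods' t-test 13 fell without adjustment (945) and 3 with it (302). The 2 that rose became 1 with each array centred, 1 without the filter, 0 with set means, 0 within replicates 1 and 2, 1 within replicates 3 and 4 and 1 by the methods' t-test after adjustment. With set means 0 genes of all tested fell in mutant cells and 45 with ICRF-193. That fit had 2 averages per group and no block for the set. Differences between the sets thus stayed in its spread, and it decides little about single genes. Fits within replicate pairs were chosen after seeing the data.

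With 1 array left out, the genes that fell numbered 5 to 7 in mutant cells (5 without control replicate 1), 3 to 5 with ICRF-193 (3 without DMSO replicate 1, ICRF-193 replicate 3 or ICRF-193 replicate 4) and 35 to 37 with Smo2; those that rose numbered 2, 1 to 2 (1 without DMSO replicate 2 or 3 or ICRF-193 replicate 1 or 2) and 2. Counts over all genes are not given for the fits without 1 array, so these counts are a description. The median changes ran from -0.25 to -0.15, -0.21 to -0.09 and -1.17 to -1.12. The median with Smo2 was -1.19 on the values as deposited, -1.01 with each array centred and -1.02 over the mean of bright probe sets. The replicate block gave 11 genes that fell in mutant cells (555 over all genes) and 36 with Smo2 (4064 over all genes). The cause of these shifts was not tested.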
